A study of Homo sapiens with 36 samples.

Results

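The heat shock proteins and cytosolic chaperones of human cells, with their J-domain partners and the factor HSF1, were followed in TC32 cells, a line established from a Ewing sarcoma. They were chosen by gene symbol: the HSPA, HSPB, HSP90A, DNAJA, DNAJB, DNAJC and CCT families, with HSPH1, HSPD1, HSPE1, TCP1, CRYAB, CHORDC1, BAG3, HSF1 and HSF2, and without 4 genes of the endoplasmic reticulum (HSPA5, DNAJB9, DNAJB11 and DNAJC3). The array annotation held 84 such genes, and 70 of them passed the detection filter (detection p below 0.01 on at least 3 arrays), of 11437 genes that passed in all. The 14 others were CCT8L2, DNAJA4, DNAJB13, DNAJB3, DNAJB7, DNAJB8, DNAJC22, DNAJC5B, DNAJC5G, DNAJC6, HSPA12B, HSPB6, HSPB7 and HSPB9, and HSF2 had 0 annotated probes and was not analysed here. Messenger RNA was measured on 36 Illumina bead arrays, each from cells labelled with 20 nM and 48 h. The groups were 3 siRNAs against SUPT6H (siSUPT6H A1, A3 and Q3), 3 against SF3B1 (siSF3B1 A2, A3 and Q3) and 3 against HNRNPH1 (siHNRNPH1 A2, A3 and Q3), then a negative control siRNA (siNeg, 6 arrays) and cells labelled Untreated (3 arrays). Every siRNA had 3 arrays. The Untreated arrays carry the same dose label as the others. SUPT6H acts as a histone chaperone during transcript elongation, SF3B1 is a part of the spliceosome that binds the branch site, and HNRNPH1 binds G-rich RNA and steers splice site choice. All cells were of 1 line, and the labels do not say that the arrays of a group came from separate cultures, so p-values measure the spread between these arrays, which may be technical.

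Chaperones bind unfolded stretches of other proteins and help them to fold, assemble or be degraded. HSP70 proteins do so in cycles of ATP hydrolysis that J-domain proteins start, HSP110 proteins reset them by nucleotide exchange, HSP90 finishes client proteins such as kinases, small heat shock proteins hold unfolded proteins without ATP, and the TRiC/CCT ring folds actin and tubulin. When unfolded protein builds up, HSF1 is freed from chaperones, forms trimers, binds repeats of GAA and TTC in promoters, and drives the inducible genes, of which HSPA1A and HSPA1B are the best known. Most of the 70 genes are also expressed without stress.

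The siNeg arrays fell into 2 sets. Set 1 (3 arrays) shared its value distribution in the authors' normalized table with the siSUPT6H, siSF3B1 and Untreated arrays (24 in all), and set 2 (3 arrays) with the siHNRNPH1 arrays (12 in all), so each silenced group was compared with the siNeg set of its own distribution. Values are log2 intensities after background correction and quantile normalization, changes are log2 fold changes, and a gene was called where its adjusted p (two-sided limma test, Benjamini-Hochberg over 11437 genes) was below 0.05. Between 13106 and 16788 probes were detected per array, with the siSF3B1 arrays lowest (13106 to 14853, against 15412 to 16295 in siNeg set 1). Each siRNA group lowered its own target: 29.3% of SUPT6H was left with siSUPT6H, 40.9% of SF3B1 with siSF3B1 and 39.2% of HNRNPH1 with siHNRNPH1, with every silenced array below every siNeg array. SUPT6H mRNA was also called lower where it was not the target, at 45.4% with siSF3B1 and 58.4% with siHNRNPH1, and HNRNPH1 was at 66.6% with siSUPT6H. Of 10 Ewing sarcoma markers 8 were detected on all 36 arrays and FLI1 on 31, while NR0B1 had 0 probes and could not be measured. PTPRC, CD3E, CDH1, KRT5, KRT14, VWF, CDH5 and MYOD1, markers of blood, epithelium, endothelium and muscle, were detected on 0. PECAM1, detected on 9 arrays, was higher with siSUPT6H (0.71), and CD14, detected on 19, was higher with siHNRNPH1 (0.60); the part of these and of the detection counts in the results was not tested. In bulk RNA a change in the share of expressing cells and a change in RNA per cell cannot be told apart.

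With siSUPT6H 29 of the 70 chaperone genes (41.4%) were called higher and 11 lower, against 25.7% and 21.8% of all genes. With siSF3B1 33 (47.1%) were called higher and 17 lower, where 26.2% and 35.7% of all genes were called, and siSF3B1 shares its control arrays with siSUPT6H. With siHNRNPH1 18 (25.7%) were called higher and 13 lower, where the share over all genes was 21.6% and 23.5%. The 29 higher with siSUPT6H include HSPA1L and HSPA6, which would not have passed the detection filter without the siSUPT6H arrays, so their place in the count follows from the filter. The same holds for the passing of DNAJC16 and DNAJC25-GNG10, and without these 4 genes, a count added after seeing the data, 27 of 66 were higher. The median change of the 70 genes was 0.17 with siSUPT6H, 0.20 with siSF3B1 and 0.01 with siHNRNPH1, and that of all genes was 0.03, -0.06 and -0.02. Called in 1 direction with each of the 3 siRNAs were 17 higher and 4 lower members for siSUPT6H (12.4% and 11.2% of all genes), 25 and 9 for siSF3B1 (18% and 24.7%), and 13 and 7 for siHNRNPH1 (9.43% and 9.99%). All 9 silenced arrays lay above the 3 siNeg arrays for 17 members with siSUPT6H (14.7% of all genes), for 28 with siSF3B1 (19.1%) and for 12 with siHNRNPH1 (10.5%), and below them for 4 (13.3%), 13 (25.6%) and 7 (11.1%). HSPA1L is in both siSUPT6H counts of 17, and its place there follows from the filter too. The siSUPT6H counts that follow also take in the genes that passed only through the siSUPT6H arrays. When the siRNA or control group was taken as a random block, 14 members were higher and 3 lower with siSUPT6H, 24 were higher and 7 lower with siSF3B1, and 6 were higher and 5 lower with siHNRNPH1. Over all genes the random block left 9.74% higher and 8.22% lower with siSUPT6H, 15.2% and 20.4% with siSF3B1, and 7.60% and 6.58% with siHNRNPH1. Without replicate 1 of each group, 7 members were lower with siSUPT6H, and without replicate 1 or replicate 2, 13 in place of 20 were called with all 3 siHNRNPH1 siRNAs. Without background correction the medians were 0.09 with siSUPT6H and 0.12 with siSF3B1.

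**Figure D1:**
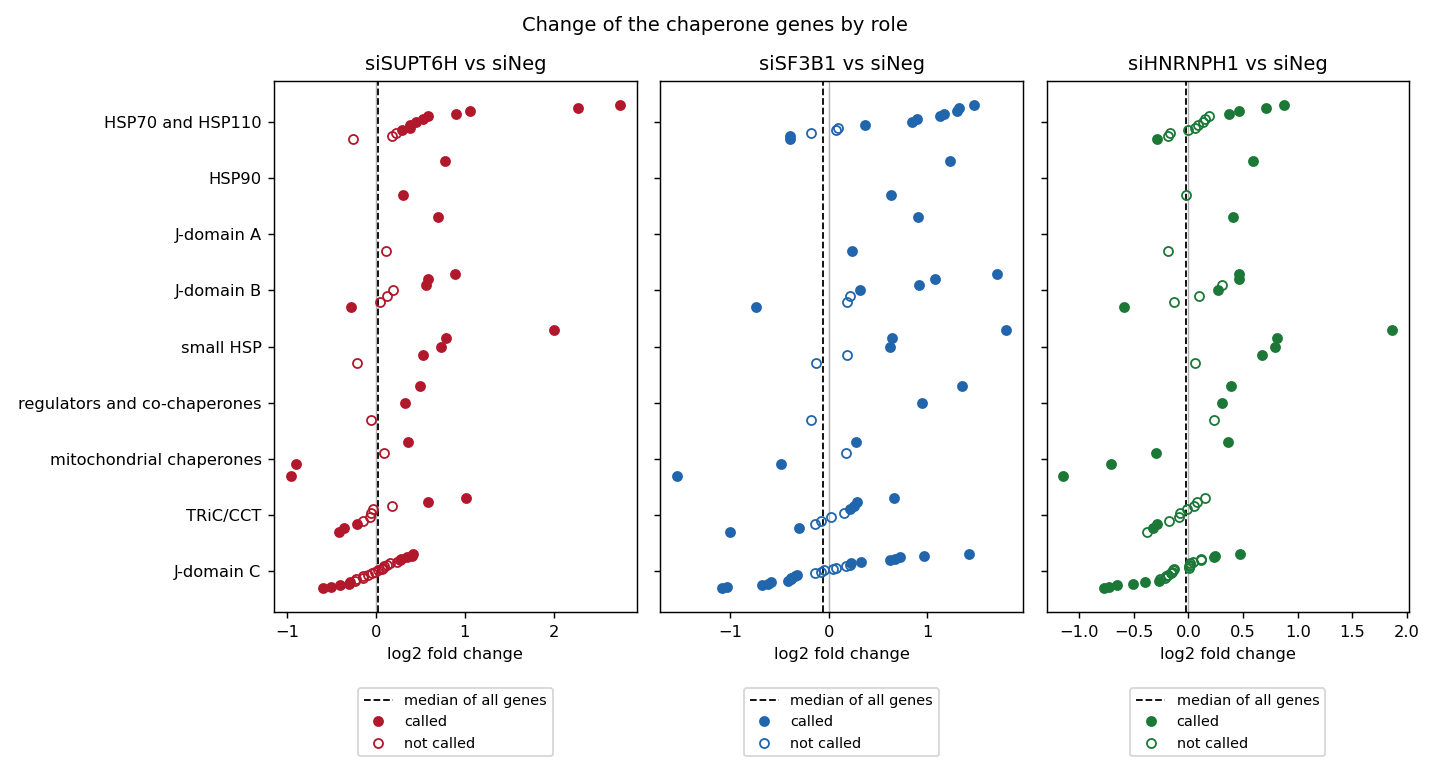
Log2 fold change (x axis) of the 70 chaperone genes in 9 role groups (rows) with siSUPT6H, siSF3B1 and siHNRNPH1, each against its own siNeg set. Filled points were called, open points were not, and the dashed line is the median of all genes; HSP70, HSP90 and small heat shock genes lie mostly to the right, HSPA9 and DNAJA3 of the mitochondrial chaperones to the left.

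The stress-inducible HSP70 genes moved furthest of the 70 with siSUPT6H. HSPA1A read 10.67, 10.48 and 10.50 with siSUPT6H A1, 10.38, 10.22 and 10.40 with A3 and 9.16, 9.36 and 9.24 with Q3, against 7.38, 7.31 and 7.20 in siNeg set 1. All 9 siSUPT6H arrays were above all 3 siNeg arrays, those of Q3 being the lowest of the 9. The change was 2.75 (SE 0.12, adjusted p = 4.72e-26), a 6.72-fold level, and was number 6 among the rises of all 11437 genes. With siSF3B1 the 9 arrays ran from 8.31 over a median of 8.40 to 8.53, also without overlap, a change of 1.12 (SE 0.12, adjusted p = 1.09e-11). Against the Untreated arrays the changes of HSPA1A were smaller, 2.16 with siSUPT6H and 0.53 with siSF3B1, both called. With siHNRNPH1 the 9 arrays ran from 5.72 over 6.27 to 6.83, against 5.78, 5.51 and 5.36 in siNeg set 2. Here 1 of the siHNRNPH1 A2 arrays overlapped the siNeg range, and the change was 0.71 (SE 0.12, adjusted p = 2.29e-06). With the siRNA groups as a random block that last call was lost (adjusted p = 0.0760), and against all 6 siNeg arrays its value was -0.16.

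HSPA1B, which encodes the same protein from a neighbouring copy, read 10.92, 10.92 and 10.83 with siSUPT6H A1, 10.90, 11.11 and 10.81 with A3 and 9.87, 9.80 and 9.87 with Q3, against 8.24, 8.15 and 8.44 in siNeg set 1. The groups did not overlap, and Q3 was again the lowest siRNA. Its changes were 2.28 (SE 0.08, adjusted p = 1.02e-30) with siSUPT6H, 1.17 (SE 0.08, adjusted p = 8.69e-19) with siSF3B1 and 0.47 (SE 0.08, adjusted p = 1.89e-06) with siHNRNPH1. Against the Untreated arrays they were 1.74 with siSUPT6H and 0.63 with siSF3B1, both called. The siSF3B1 arrays lay between 9.23 and 9.60, and the siHNRNPH1 arrays between 8.78 and 9.54, against 8.66, 8.75 and 8.72 in siNeg set 2, with no overlap in either comparison. The siHNRNPH1 call was lost with the random block (adjusted p = 0.135). The near-identical copies HSPA1A and HSPA1B may share signal between their probes, so the values are not independent. Their promoters are shown because these genes rose most with siSUPT6H. They were taken from RefSeq (GRCh38.p14, plus strand, from 250 bases before to 50 after the annotated start), and aligned with 277 of 299 bases identical (92.64%). Capitals mark letters that match GAANNTTC or TTCNNGAA, a pair of the repeats that HSF1 trimers bind. Each promoter held 1 such pair, which began at -106 in HSPA1A and at -105 in HSPA1B, counted from the annotated start.
HSPA1A, chr6:31815293-31815592: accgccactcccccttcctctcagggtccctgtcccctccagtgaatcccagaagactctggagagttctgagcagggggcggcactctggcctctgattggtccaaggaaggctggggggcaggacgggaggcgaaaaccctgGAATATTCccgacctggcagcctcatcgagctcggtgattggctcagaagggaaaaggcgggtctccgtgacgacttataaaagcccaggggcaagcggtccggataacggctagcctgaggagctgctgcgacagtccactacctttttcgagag
HSPA1B, chr6:31827488-31827787: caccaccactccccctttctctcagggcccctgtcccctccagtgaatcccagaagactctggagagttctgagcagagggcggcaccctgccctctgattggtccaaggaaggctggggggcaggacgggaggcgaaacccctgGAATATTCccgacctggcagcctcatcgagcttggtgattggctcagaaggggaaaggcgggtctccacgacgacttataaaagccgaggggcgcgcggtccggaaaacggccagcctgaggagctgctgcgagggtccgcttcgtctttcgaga

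**Figure D2:**
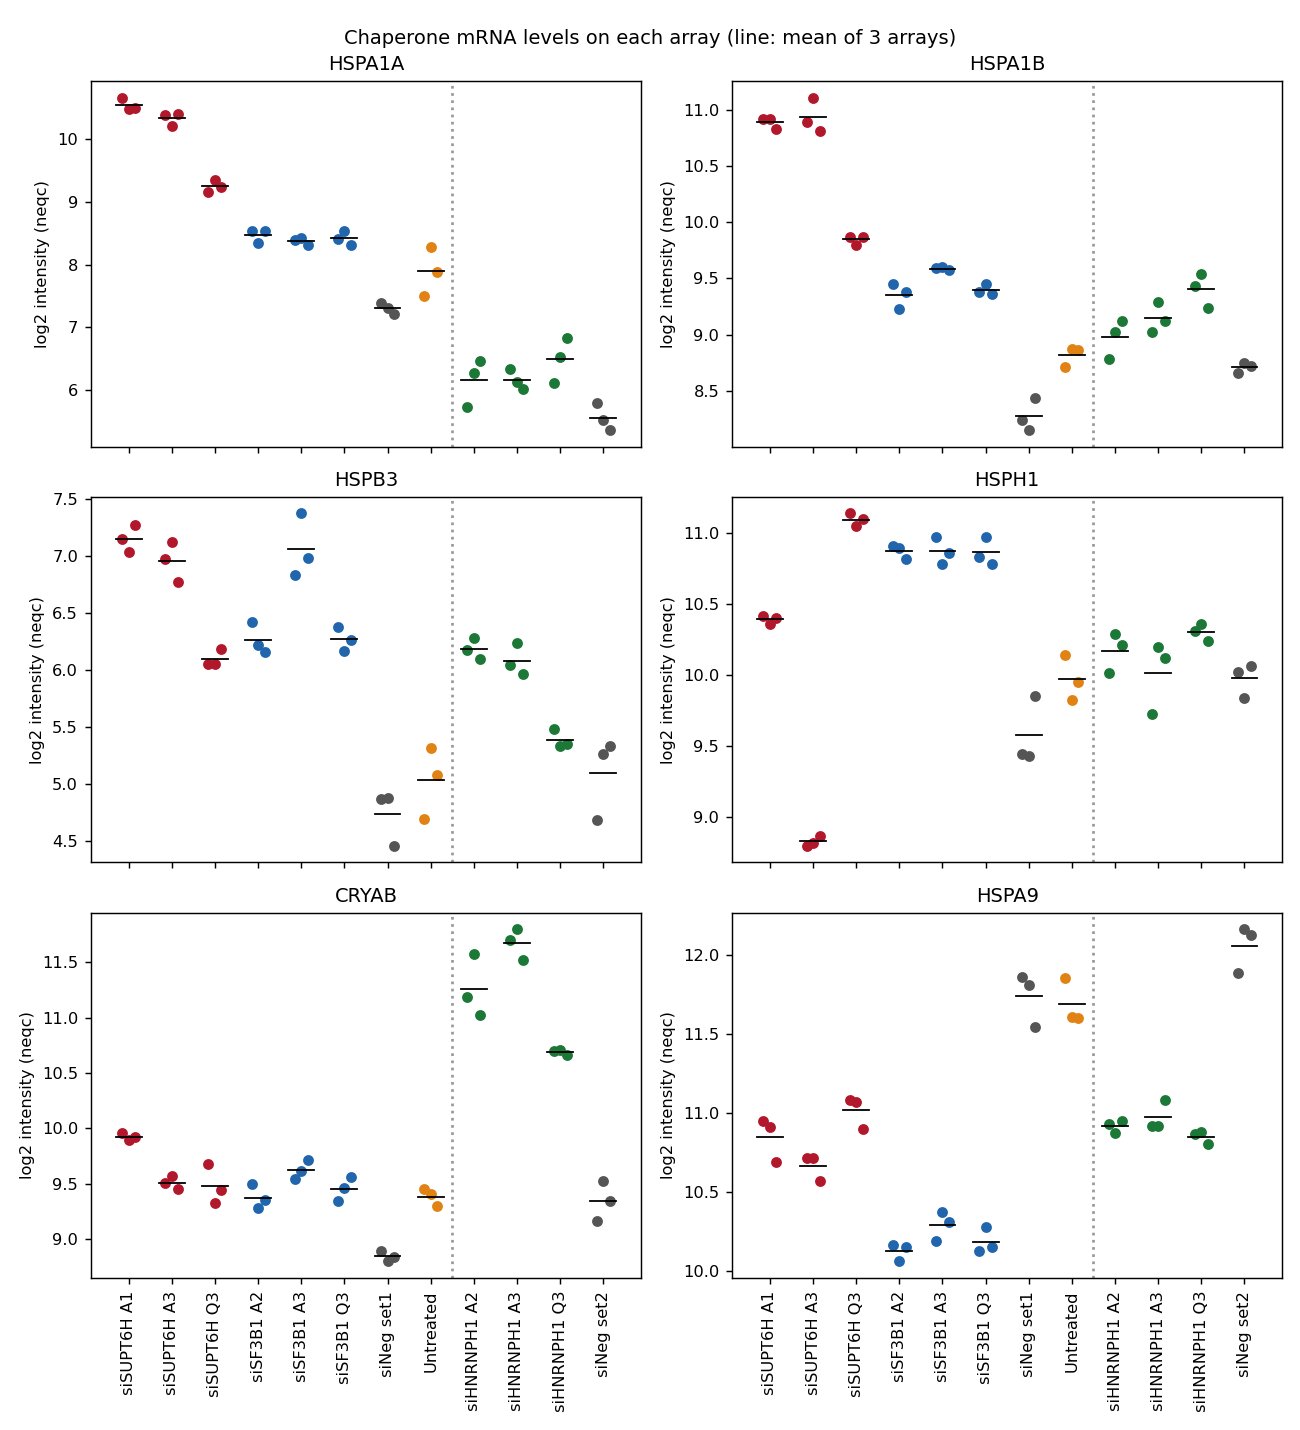
Log2 intensity (y axis) of HSPA1A, HSPA1B, HSPB3, HSPH1, CRYAB and HSPA9 on each array of the 12 groups (x axis), with a line at each group's mean of 3 arrays. Groups left of the dotted line belong with siNeg set 1, those on the right with siNeg set 2; all siSUPT6H and siSF3B1 arrays lie above siNeg set 1 for HSPA1A, HSPA1B, HSPB3 and CRYAB and below it for HSPA9, while HSPH1 splits by siSUPT6H siRNA.

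Repeat elements of this kind were then looked for in the promoters of all chaperone genes. The RefSeq table held 61 of the 70, and not those of CCT6A, CCT6P1, CRYAB, DNAJC1, DNAJC24, HSF1, HSPA14, HSPA7 and HSPB2. A pair (GAANNTTC or TTCNNGAA, each of which reads the same on both strands) stood in 16 of the 61 (26.23%) and in 13.69% of 27305 promoters of the same length. A run of 3 repeats (GAANNTTCNNGAA or TTCNNGAANNTTC, each other's reverse complement, and each containing both pairs) stood in 5 of the 61 (8.197%) and in 0.487% of all. These were the promoters of CHORDC1, DNAJA1, DNAJB6, HSPA6 and HSPA8. HSPA6 passed the detection filter only through the siSUPT6H arrays, 3 of 9 of which detected it, and no fold is given for it (HSPA7, its near-identical copy, was measured beside it). The other 4 were called higher with each target, in the order siSUPT6H, siSF3B1 and siHNRNPH1 by 0.50, 0.94 and 0.31 for CHORDC1, 0.70, 0.90 and 0.41 for DNAJA1, 0.59, 1.70 and 0.27 for 1 probe of DNAJB6, and 0.45, 0.85 and 0.37 for HSPA8. CHORDC1 was called higher with only 1 of 3 siHNRNPH1 siRNAs (F test among siRNAs, adjusted p = 0.0129) and with 2 of 3 siSUPT6H siRNAs (adjusted p = 0.000857). The siHNRNPH1 call of DNAJB6 was lost with the random block (adjusted p = 0.411). Of the 56 genes without a run of 3, 22 were higher and 10 lower with siSUPT6H. With siSF3B1 27 of them were higher and 15 lower, and with siHNRNPH1 12 and 12. The 22 include HSPA1L, which also passed the detection filter only through the siSUPT6H arrays. BAG3, HSP90AA1 and DNAJB1 had neither a pair nor a run and were also called higher with each target. Whether a run goes with the direction of change was not tested. A match describes these letters only and is no measured binding. Only exact repeats within 300 bases were searched, so a promoter without a match may still hold an inexact or more distant element. The promoters of HSPA8, CHORDC1 and DNAJB6 are shown as examples with a run of 3, with capitals for pairs and runs as above. That of HSPA9, the mitochondrial HSP70 that fell, is shown as an example with a single pair, which HSPA1A and HSPA1B also had. HSPA8 has a run starting at -230 and another at -55, CHORDC1 an unbroken series of repeats from -60, and DNAJB6 a run at -131, while HSPA9 has only a single pair across its start, at -4.
HSPA8, chr11:123062087-123062386, minus strand: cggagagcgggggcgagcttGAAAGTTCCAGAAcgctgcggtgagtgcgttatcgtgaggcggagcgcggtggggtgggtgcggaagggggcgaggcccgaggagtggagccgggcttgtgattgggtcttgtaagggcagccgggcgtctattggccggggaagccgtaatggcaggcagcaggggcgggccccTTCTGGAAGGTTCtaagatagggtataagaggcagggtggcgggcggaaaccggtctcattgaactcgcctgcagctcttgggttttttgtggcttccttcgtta
CHORDC1, chr11:90223000-90223299, minus strand: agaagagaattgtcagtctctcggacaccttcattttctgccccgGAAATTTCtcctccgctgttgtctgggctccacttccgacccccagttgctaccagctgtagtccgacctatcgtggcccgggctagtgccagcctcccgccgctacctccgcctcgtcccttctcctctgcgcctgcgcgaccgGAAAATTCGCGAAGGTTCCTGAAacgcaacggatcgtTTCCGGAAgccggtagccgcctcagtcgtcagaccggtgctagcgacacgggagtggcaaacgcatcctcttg
DNAJB6, chr7:157336754-157337053, plus strand: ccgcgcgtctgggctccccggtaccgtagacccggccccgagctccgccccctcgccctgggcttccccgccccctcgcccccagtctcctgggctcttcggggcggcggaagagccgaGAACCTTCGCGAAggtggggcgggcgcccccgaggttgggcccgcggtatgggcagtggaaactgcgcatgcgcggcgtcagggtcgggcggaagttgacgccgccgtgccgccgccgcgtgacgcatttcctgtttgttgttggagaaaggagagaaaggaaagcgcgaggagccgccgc
HSPA9, chr5:138575352-138575651, minus strand: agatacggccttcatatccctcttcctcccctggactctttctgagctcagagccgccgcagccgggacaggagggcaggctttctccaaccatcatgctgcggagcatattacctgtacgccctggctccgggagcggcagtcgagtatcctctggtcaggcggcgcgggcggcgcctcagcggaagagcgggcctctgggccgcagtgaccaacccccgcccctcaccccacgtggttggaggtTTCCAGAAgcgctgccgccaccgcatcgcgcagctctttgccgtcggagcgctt

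Across the 11 HSP70 and HSP110 genes that did not depend on the siSUPT6H arrays to pass the filter, 8 were called higher and 0 lower with siSUPT6H, 8 higher and 2 lower with siSF3B1, and 4 higher and 1 lower with siHNRNPH1. Of all genes 25.7% were higher and 21.8% lower with siSUPT6H, 26.2% and 35.7% with siSF3B1, and 21.6% and 23.5% with siHNRNPH1. HSPA8, the constitutive HSP70 and among the most strongly expressed mRNAs of most cells, rose by 0.45 with siSUPT6H, 0.85 with siSF3B1 and 0.37 with siHNRNPH1, and no silenced array overlapped its siNeg arrays. Against the Untreated arrays its change with siSUPT6H was -0.0051 (adjusted p = 0.962), not called. HSPA2, an HSP70 best known from spermatogenesis, differed in direction. It read 6.58, 6.82 and 7.51 (lowest, median and highest of 9) with siSUPT6H and 5.03, 5.54 and 5.79 with siSF3B1, against 5.94, 5.88 and 5.86 in siNeg set 1. All siSUPT6H arrays were above and all siSF3B1 arrays below the siNeg arrays, with changes of 1.06 (SE 0.12, adjusted p = 8.80e-11) and -0.39 (SE 0.12, adjusted p = 0.00383). The siSF3B1 call was lost with the random block (adjusted p = 0.330). With siHNRNPH1 HSPA2 read 7.98, 8.17 and 7.82 for A2, 6.49, 6.58 and 6.63 for A3 and 6.51, 6.76 and 6.54 for Q3, against 6.23, 6.04 and 6.28 in siNeg set 2. A2 stood well above the other siRNAs, and the mean change was 0.87 (SE 0.12, adjusted p = 1.96e-08). HSPA1L, a relative of HSPA1A from the same gene cluster, was detected on 9 of 9 siSUPT6H arrays and on 0 of 3 in siNeg set 1. HSPA1L passed the detection filter only through the siSUPT6H arrays, so this contrast follows from the filter and no fold is given for it. With siSF3B1 and with siHNRNPH1 it was detected on 0 of 9 arrays.

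The HSP110 proteins HSPH1, HSPA4 and HSPA4L act as exchange factors for HSP70. HSPH1 read 10.41, 10.36 and 10.40 with siSUPT6H A1, 8.80, 8.82 and 8.87 with A3 and 11.14, 11.05 and 11.10 with Q3, against 9.44, 9.43 and 9.85 in siNeg set 1. A1 and Q3 were above the siNeg arrays and A3 below them, with changes of 0.82, 1.52 and -0.75, each called. The mean of the 3 siRNAs, 0.53 (SE 0.08, adjusted p = 3.97e-07), therefore describes none of them, and it was not called against the Untreated arrays (0.13, adjusted p = 0.200) or with the random block (adjusted p = 0.257). With siSF3B1 the 9 arrays lay between 10.79 and 10.98 (median 10.86), all above siNeg, a change of 1.30 (SE 0.08, adjusted p = 1.86e-19). With siHNRNPH1 the change of HSPH1 was 0.19 (SE 0.08, adjusted p = 0.0629), not called. HSPA4 read 8.49, 8.99 and 9.16 (lowest, median and highest) with siSF3B1, against 7.56, 7.67 and 7.62 in siNeg set 1, with no overlap and a change of 1.32 (SE 0.11, adjusted p = 3.55e-15). Its other kept probe gave 0.59 with siSF3B1 and 1.00 with siSUPT6H, both called, where the first gave 0.23 with siSUPT6H, not called. HSPA4L, its close relative, rose by 0.59 with siSUPT6H and 0.90 with siSF3B1, and changed by -0.01 with siHNRNPH1, not called. The siSUPT6H value of HSPA4L was 0.19 against the Untreated arrays (adjusted p = 0.235), not called. HSPA14, an HSP70 of the ribosome, read 9.26, 9.58 and 9.79 with siSF3B1, against 7.99, 8.20 and 8.11 in siNeg set 1. These groups were apart and the change was 1.48 (SE 0.08, adjusted p = 1.33e-21), while with siSUPT6H it was 0.39 (SE 0.08, adjusted p = 0.000113) with overlapping groups (0.08 against the Untreated arrays, adjusted p = 0.463, and adjusted p = 0.156 with the random block), and with siHNRNPH1 0.09 (SE 0.08, adjusted p = 0.397).

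Both cytosolic HSP90 genes rose with siSUPT6H and with siSF3B1. HSP90AA1, the inducible form, rose by 0.77 with siSUPT6H, 1.23 with siSF3B1 and 0.59 with siHNRNPH1, without overlap in any of the 3 comparisons. Its least detected probe, of 3 kept, gave 1.01 with siSUPT6H, 0.47 with siSF3B1 and 0.02 with siHNRNPH1, the last not called. HSP90AB1, the constitutive form, rose by 0.31 and 0.63 with siSUPT6H and siSF3B1, and its change with siHNRNPH1 was -0.02 (SE 0.07, adjusted p = 0.829), not called. Against the Untreated arrays the rises with siSUPT6H and siSF3B1 were 0.36 and 0.82 for HSP90AA1 and 0.65 and 0.98 for HSP90AB1, all called. Among the J-domain proteins that work with cytosolic HSP70, DNAJA1 rose by 0.70, 0.90 and 0.41 with siSUPT6H, siSF3B1 and siHNRNPH1. DNAJB1, the main stress-inducible partner of HSP70, rose by 0.91 with siSF3B1 and 0.46 with siHNRNPH1. With siSUPT6H its change was 0.96 for A1, 0.96 for A3 and -0.23 for Q3, and only the last was not called.

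DNAJB6, a suppressor of polyglutamine aggregation, read 9.77, 9.97 and 10.22 (lowest, median and highest of 9) with siSF3B1, against 8.21, 8.11 and 8.49 in siNeg set 1. The groups were far apart, with a change of 1.70 (SE 0.10, adjusted p = 3.99e-21). Its other kept probe went the opposite way, -0.26 and called, so the value holds for 1 probe and not for the gene as a whole. The same probes gave 0.59 and 0.85 with siSUPT6H, and 0.27 and -0.26 with siHNRNPH1, where the rise was not called without replicate 1 (0.24, adjusted p = 0.148), without replicate 3 (0.24, adjusted p = 0.111), or with the random block (adjusted p = 0.411). DNAJB4 rose by 0.89 with siSUPT6H and 1.08 with siSF3B1, and was detected on 0 arrays of siHNRNPH1 and siNeg set 2. DNAJB12, a J-domain protein of the endoplasmic reticulum membrane, fell with siSF3B1 (-0.74) and siHNRNPH1 (-0.59) and changed by 0.05 with siSUPT6H, not called. Another of the DNAJB12 probes gave 0.12 in both falls, not called, and against the Untreated arrays the siSF3B1 value was -0.33 (adjusted p = 0.0616), also not called. Of the 7 B-class genes 3 were higher and 1 lower with siSUPT6H, 4 and 1 with siSF3B1, and 3 and 1 with siHNRNPH1. The shares of all genes were 25.7% and 21.8% with siSUPT6H, 26.2% and 35.7% with siSF3B1, and 21.6% and 23.5% with siHNRNPH1.

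**Figure D3:**
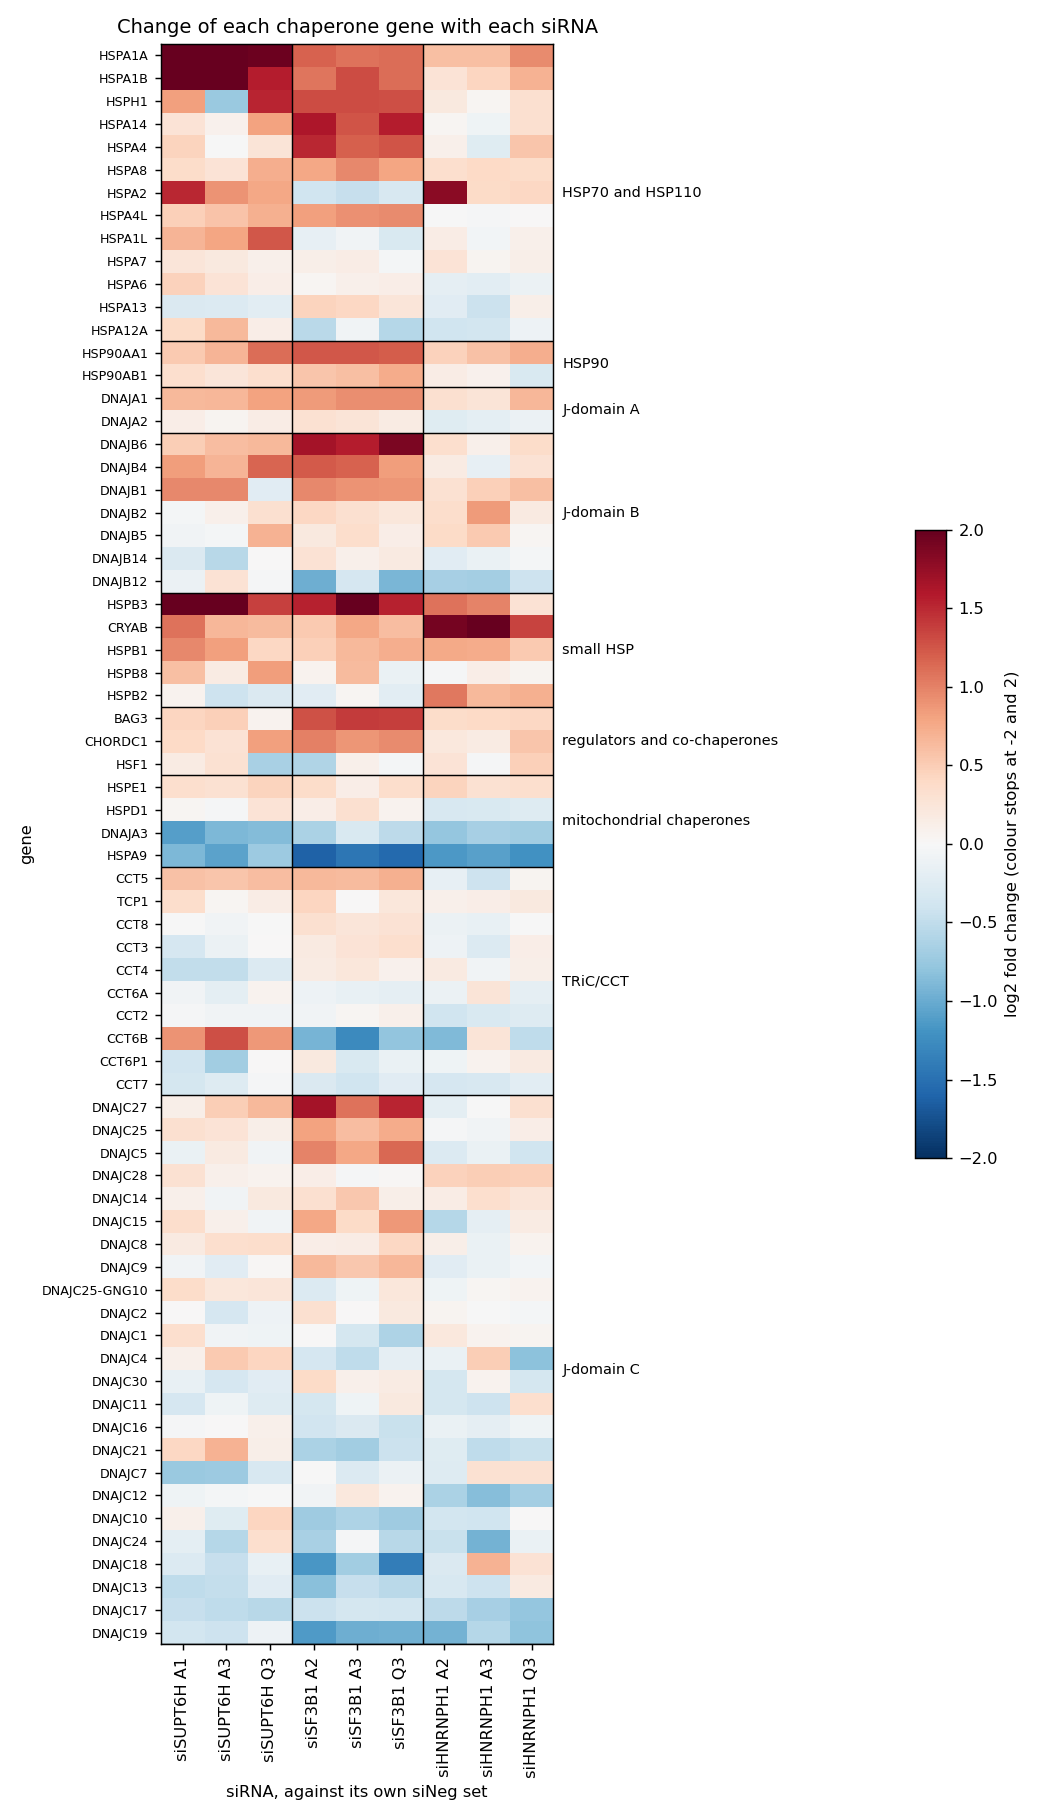
Log2 fold change (colour, capped at -2 and 2) of the 70 chaperone genes (rows, grouped by role) with each of 9 siRNAs (columns) against its own siNeg set. HSPA1A is red in all columns and HSPA9 blue in all, HSPH1 and DNAJB1 differ among the siSUPT6H siRNAs, and the J-domain C genes show no common direction.

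Small heat shock proteins had some of the largest rises. HSPB3, which is known from muscle, read 7.15, 7.04 and 7.27 with siSUPT6H A1, 6.97, 7.12 and 6.77 with A3 and 6.05, 6.05 and 6.19 with Q3, against 4.87, 4.88 and 4.46 in siNeg set 1, where it was detected on 1 of 3 arrays. All siSUPT6H arrays were above siNeg, by 2.00 (SE 0.13, adjusted p = 5.23e-19). With siSF3B1 it read 6.42, 6.22 and 6.16 for A2, 6.83, 7.37 and 6.98 for A3 and 6.38, 6.17 and 6.26 for Q3, again without overlap, and rose by 1.80 (SE 0.13, adjusted p = 1.29e-17). A3 was the highest siRNA, and the difference among the 3 passed the F test (adjusted p = 0.000125). With siHNRNPH1 the arrays ran from 5.33 over 6.04 to 6.28, against 4.68, 5.26 and 5.34 in siNeg set 2, and overlapped it through Q3. The change was 0.79 (SE 0.13, adjusted p = 1.15e-06), and was not called with the random block (adjusted p = 0.0683). The skeletal muscle marker MYOD1 was detected on 0 arrays and DES on 1. CRYAB, the alpha-B crystallin, read 11.18, 11.58 and 11.03 with siHNRNPH1 A2, 11.70, 11.80 and 11.52 with A3 and 10.70, 10.70 and 10.67 with Q3, against 9.16, 9.52 and 9.35 in siNeg set 2. All 9 were above the controls and Q3 was lowest, with a change of 1.87 (SE 0.08, adjusted p = 8.19e-26), a 3.65-fold level. With siSUPT6H CRYAB rose by 0.79 and with siSF3B1 by 0.64, both without overlap, although the siSF3B1 arrays were only 0.10 above the Untreated arrays (adjusted p = 0.302). The siSUPT6H arrays were 0.25 above the Untreated arrays, a difference that was called.

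HSPB2 lies beside CRYAB in the genome. It read 7.81, 7.96 and 8.35 (lowest, median and highest of 9) with siHNRNPH1, against 7.14, 7.20 and 7.35 in siNeg set 2. It rose by 0.81 (SE 0.10, adjusted p = 6.42e-10) with no overlap, and changed by -0.21 (SE 0.10, adjusted p = 0.0677) with siSUPT6H and -0.13 (SE 0.10, adjusted p = 0.251) with siSF3B1, neither called. HSPB1, the abundant HSP27, rose by 0.74 with siSUPT6H, 0.62 with siSF3B1 and 0.68 with siHNRNPH1, each without overlap. HSPB8, which works with BAG3 in autophagy of protein aggregates, rose by 0.53 with siSUPT6H and was not called with siSF3B1 (0.19) or siHNRNPH1 (0.06).

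The regulators were BAG3, CHORDC1 and HSF1. BAG3, a co-chaperone and known HSF1 target, rose by 1.35 with siSF3B1, 0.32 with siSUPT6H and 0.39 with siHNRNPH1. Against the Untreated arrays the siSUPT6H value of BAG3 was 0.08 (adjusted p = 0.428), not called. CHORDC1, an HSP90 partner whose promoter is shown above, rose by 0.94, 0.50 and 0.31, in the same order. HSF1 mRNA itself read 5.52, 5.69 and 5.90 with siSUPT6H A1, 5.80, 5.90 and 5.85 with A3 and 4.94, 4.93 and 4.83 with Q3, against 5.23, 5.84 and 5.56 in siNeg set 1. Q3 was below the siNeg arrays and the others overlapped them. The mean change was -0.06 (SE 0.14, adjusted p = 0.770), not called, with a 95% interval from -0.34 to 0.22, and -0.64 with Q3 alone, called. With siSF3B1 HSF1 ran from 4.68 over 5.40 to 5.88, a change of -0.18 (SE 0.14, adjusted p = 0.269), and with siHNRNPH1 from 5.40 over 6.01 to 6.25, against 5.74, 5.81 and 5.53 in siNeg set 2, a change of 0.24 (SE 0.14, adjusted p = 0.165). Neither was called, and in both the arrays overlapped the controls. The arrays measure HSF1 mRNA and not its activity.

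The mitochondrial chaperones were split. HSPA9, the mitochondrial HSP70 that pulls proteins into the matrix, read 10.57, 10.90 and 11.08 (lowest, median and highest of 9) with siSUPT6H and 10.06, 10.16 and 10.38 with siSF3B1, against 11.86, 11.81 and 11.55 in siNeg set 1. With siHNRNPH1 it read 10.80, 10.92 and 11.08, against 11.89, 12.16 and 12.12 in siNeg set 2. Every silenced array was below its controls, with changes of -0.90 (SE 0.08, adjusted p = 8.59e-15) for siSUPT6H, -1.54 (SE 0.08, adjusted p = 2.83e-24) for siSF3B1 and -1.15 (SE 0.08, adjusted p = 6.34e-19) for siHNRNPH1. DNAJA3, its J-domain partner in the matrix, read 8.24 to 8.54 (median 8.46) with siSUPT6H, against 9.27, 9.51 and 9.35 in siNeg set 1, and 8.96 to 9.22 (median 9.15) with siHNRNPH1, against 9.83, 9.91 and 9.80 in siNeg set 2. It too lay below the controls on all silenced arrays, with changes of -0.96 (SE 0.07, adjusted p = 7.69e-17) with siSUPT6H, -0.48 (SE 0.07, adjusted p = 3.75e-08) with siSF3B1 and -0.71 (SE 0.07, adjusted p = 2.18e-12) with siHNRNPH1. The mitochondrial ring pair went otherwise. HSPE1 rose by 0.36 with siSUPT6H, 0.28 with siSF3B1 and 0.36 with siHNRNPH1, but was not called against the Untreated arrays with siSUPT6H (0.10, adjusted p = 0.440) or siSF3B1 (0.02, adjusted p = 0.894). The probes of HSPD1 disagreed. The one that stands for the gene fell with siHNRNPH1 (-0.30) and was not called with siSUPT6H (0.09) or siSF3B1 (0.17), while another gave -0.72 with siSUPT6H (adjusted p = 9.88e-08) and 0.45 with siSF3B1 (adjusted p = 0.000233), both called, and -0.03 with siHNRNPH1, not called.

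The TRiC/CCT genes showed no common direction. Of 10 measured, 2 were called higher and 3 lower with siSUPT6H, 4 and 2 with siSF3B1, and 0 and 2 with siHNRNPH1. The shares of all genes were 25.7% and 21.8% with siSUPT6H, 26.2% and 35.7% with siSF3B1, and 21.6% and 23.5% with siHNRNPH1. CCT5 rose by 0.59 with siSUPT6H and 0.67 with siSF3B1, and CCT7 fell in all 3 comparisons, by 0.21, 0.30 and 0.29 with siSUPT6H, siSF3B1 and siHNRNPH1, although its 2 other kept probes were not called with siSF3B1 (-0.15 and -0.18) or siHNRNPH1 (-0.06 and -0.19). CCT4 fell by 0.42 with siSUPT6H. CCT6B, a subunit form known from testis, moved furthest. It read 6.77, 6.83 and 7.21 with siSUPT6H A1, 7.37, 7.56 and 7.05 with A3 and 6.82, 6.99 and 6.91 with Q3, and 4.63, 5.08 and 5.56 (lowest, median and highest) with siSF3B1, against 6.01, 6.16 and 5.96 in siNeg set 1. All siSUPT6H arrays were above and all siSF3B1 arrays below the controls, and only 4 of the 9 siSF3B1 arrays detected it. The changes were 1.01 (SE 0.16, adjusted p = 5.65e-07) with siSUPT6H and -0.999 (SE 0.16, adjusted p = 3.96e-07) with siSF3B1. CCT6P1 is a transcribed pseudogene of CCT6A, and signal may be shared between their probes. It read 9.61, 9.63 and 9.53 with siSUPT6H A1, 9.17, 9.20 and 9.47 with A3, 9.88, 10.07 and 9.98 with Q3, 10.09, 10.18 and 10.22 with siSF3B1 A2, 9.64, 9.66 and 9.72 with A3 and 9.86, 9.92 and 9.74 with Q3, against 9.92, 9.96 and 10.03 in siNeg set 1. Within siSF3B1 it was higher with A2 than with the others (F test, adjusted p = 0.000556), and only the change with A3 was called. Its mean fall with siSUPT6H, -0.36 (SE 0.08, adjusted p = 0.000101), was not called with the random block (adjusted p = 0.160) and was a rise of 0.49 against all 6 siNeg arrays.

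The class C J-domain proteins are the most varied, with roles from mRNA splicing to synaptic vesicles. Of 24, 4 were higher and 5 lower with siSUPT6H, 7 and 10 with siSF3B1, and 2 and 6 with siHNRNPH1. The shares of all genes were 25.7% and 21.8% with siSUPT6H, 26.2% and 35.7% with siSF3B1, and 21.6% and 23.5% with siHNRNPH1. DNAJC27, a small GTPase with a J domain, read 6.76, 7.20 and 7.63 (lowest, median and highest of 9) with siSF3B1, against 5.71, 5.88 and 5.70 in siNeg set 1, a rise of 1.42 (SE 0.12, adjusted p = 1.40e-15) without overlap. DNAJC5, the cysteine string protein of vesicles, rose by 0.97 with siSF3B1 and fell by 0.27 with siHNRNPH1. DNAJC18 read 4.36, 4.66 and 5.23 with siSF3B1, against 5.98, 5.77 and 5.67 in siNeg set 1. It was detected on 2 of the 9 siSF3B1 arrays, all of which were below the controls, and the change was -1.08 (SE 0.13, adjusted p = 1.15e-10). DNAJC19, a part of the motor that imports proteins into mitochondria, read 5.28, 5.55 and 6.03 with siSF3B1 and 5.67, 6.06 and 6.35 with siHNRNPH1, against 6.72, 6.51 and 6.53 in siNeg set 1 and 6.66, 6.90 and 6.87 in set 2. It fell without overlap in both, with changes of -1.03 (SE 0.12, adjusted p = 2.24e-10) for siSF3B1 and -0.77 (SE 0.12, adjusted p = 6.33e-07) for siHNRNPH1. Without any 1 of the 3 replicates, the smaller falls of DNAJC18 and DNAJC19 with siSUPT6H (-0.30 and -0.29) were no longer called. DNAJC27 rose by 0.42 with siSUPT6H, a call lost without replicate 1 (0.35, adjusted p = 0.0616) and with the random block (adjusted p = 0.240).

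DNAJC7, which binds both HSP70 and HSP90, fell with siSUPT6H. Its arrays read 8.37, 8.78 and 9.30 with siSUPT6H, against 9.30, 9.32 and 9.55 in siNeg set 1, with only the highest siSUPT6H array reaching the control range and a change of -0.60 (SE 0.11, adjusted p = 4.85e-06). DNAJC17, which is linked to splicing, read 5.36 to 5.75 (median 5.57) with siSUPT6H, against 5.997, 6.04 and 6.14 in siNeg set 1. It was below the controls on all silenced arrays of each target, with changes of -0.51 (SE 0.13, adjusted p = 0.000639) with siSUPT6H, -0.38 (SE 0.13, adjusted p = 0.00733) with siSF3B1 and -0.65 (SE 0.13, adjusted p = 2.35e-05) with siHNRNPH1, and with the random block it was not called for siSUPT6H (adjusted p = 0.113) or siSF3B1 (adjusted p = 0.190). The siSF3B1 fall was also not called without replicate 2 (-0.32, adjusted p = 0.0841) or against the Untreated arrays (-0.22, adjusted p = 0.132). DNAJC12, a partner of aromatic amino acid hydroxylases, read 9.25, 9.50 and 9.65 with siHNRNPH1, against 10.14, 10.19 and 10.16 in siNeg set 2. All silenced arrays were below, with a change of -0.72 (SE 0.07, adjusted p = 6.24e-12), and its 4 kept probes ran from -1.14 to -0.57. DNAJC21 was detected on 0 of 9 siSF3B1 arrays and 3 of 3 in siNeg set 1, at least 1.18-fold lower with siSF3B1 (limma adjusted p = 0.000386). That bound sets the siNeg mean against the lowest signal of any detected probe on each siSF3B1 array, or the gene's own value where higher. The 2 probes of DNAJC21 were called in opposite directions with siSUPT6H (0.41 and -0.52).

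The siRNAs against a target did not act alike on all members. The F test among 3 siRNAs called 35 members for siSUPT6H (35% of all genes), 16 for siSF3B1 (13.2%) and 27 for siHNRNPH1 (41.2%). The siSF3B1 count was 7 without replicate 1, 1 without replicate 2 and 9 without replicate 3. Called in opposite directions by siRNAs of 1 target were HSPH1 for siSUPT6H (1 member, against 1.98% of all genes), DNAJC4 for siHNRNPH1 (1 member, 2.21%) and 0 members for siSF3B1 (0.358%). For siSUPT6H the smallest p belonged to HSPH1 (adjusted p = 1.18e-23), which no other gene of the array undercut, and HSPA1B (adjusted p = 2.01e-14), whose changes were 2.61 with A1, 2.66 with A3 and 1.57 with Q3. The amount of SUPT6H mRNA left was 21.6% with A1, 25.2% with A3 and 45.9% with Q3. HSPA1A, HSPA1B, HSPB3, HSPB1, DNAJB1 and BAG3 changed least with Q3, while HSPH1, HSPA8, HSPA14, HSP90AA1, DNAJB4 and CHORDC1 changed most with Q3, so no single order of the siRNAs held for all. For siHNRNPH1 the smallest p belonged to HSPA2 (adjusted p = 1.44e-12), high with A2, and CRYAB (adjusted p = 1.43e-10), low with Q3.

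Direct differences between silenced groups leave the siNeg arrays out of the comparison of siSUPT6H with siSF3B1, since both have the same control. There 21 members were higher and 30 lower with siSUPT6H, against 42.7% and 30.6% of all genes. The members counted here and against siHNRNPH1 include HSPA1L, HSPA6, DNAJC16 and DNAJC25-GNG10. These passed the detection filter only through the siSUPT6H arrays, so the counts higher with siSUPT6H may follow in part from the filter. CCT6B (2.01, SE 0.11, adjusted p = 2.84e-22), HSPA1A (1.62, SE 0.09, adjusted p = 1.28e-23) and HSPA2 (1.45, SE 0.08, adjusted p = 6.74e-22) were the furthest higher with siSUPT6H. DNAJB6 (-1.12, SE 0.07, adjusted p = 1.70e-20), HSPA14 (-1.09, SE 0.06, adjusted p = 4.34e-23) and HSPA4 (-1.09, SE 0.08, adjusted p = 4.06e-18) were the furthest lower. For DNAJB6 the other probe gave 1.12 in the opposite direction, also called, and the mean of both probes gave 0.00038, not called. The other probe of HSPA4 gave 0.41 in the opposite direction, also called. HSPA8, BAG3 and CHORDC1 were called lower with siSUPT6H than with siSF3B1, whereas HSPA1A and HSPA1B were called higher. HSP90AA1 was called lower too, but its least detected probe gave 0.54 in the other direction. DNAJB1, called lower as a mean over the siRNAs, averaged 8.95 with siSUPT6H A1 and 8.95 with A3, against 8.90 over the 9 siSF3B1 arrays, and was lower only with Q3 (7.76). HSPH1, also called lower as a mean, averaged 11.10 with Q3, against 10.87 over the siSF3B1 arrays. Differences from siHNRNPH1 were taken after subtracting each group's own siNeg set. Higher with siSUPT6H than with siHNRNPH1 were 21 members and lower 8 (16.5% and 13.7% of all genes), led by HSPA1A (2.03), HSPA1B (1.81) and CCT6B (1.39) on one side and CRYAB (-1.07), HSPB2 (-1.02) and DNAJC7 (-0.71) on the other. Without replicate 2, 18 in place of 29 members were called there, and the DNAJC7 difference was not called without replicate 3 (-0.48, adjusted p = 0.0560). Higher with siSF3B1 than with siHNRNPH1 were 30 and lower 9 (22.8% and 29.6%), with DNAJB6 (1.44), HSPA14 (1.39) and DNAJC27 (1.38) highest and DNAJC18 (-1.31), HSPA2 (-1.26) and CRYAB (-1.23) lowest, all with limma adjusted p of at most 1.45e-08. The other probe of DNAJB6 gave -0.0019 there, not called.

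**Figure D4:**
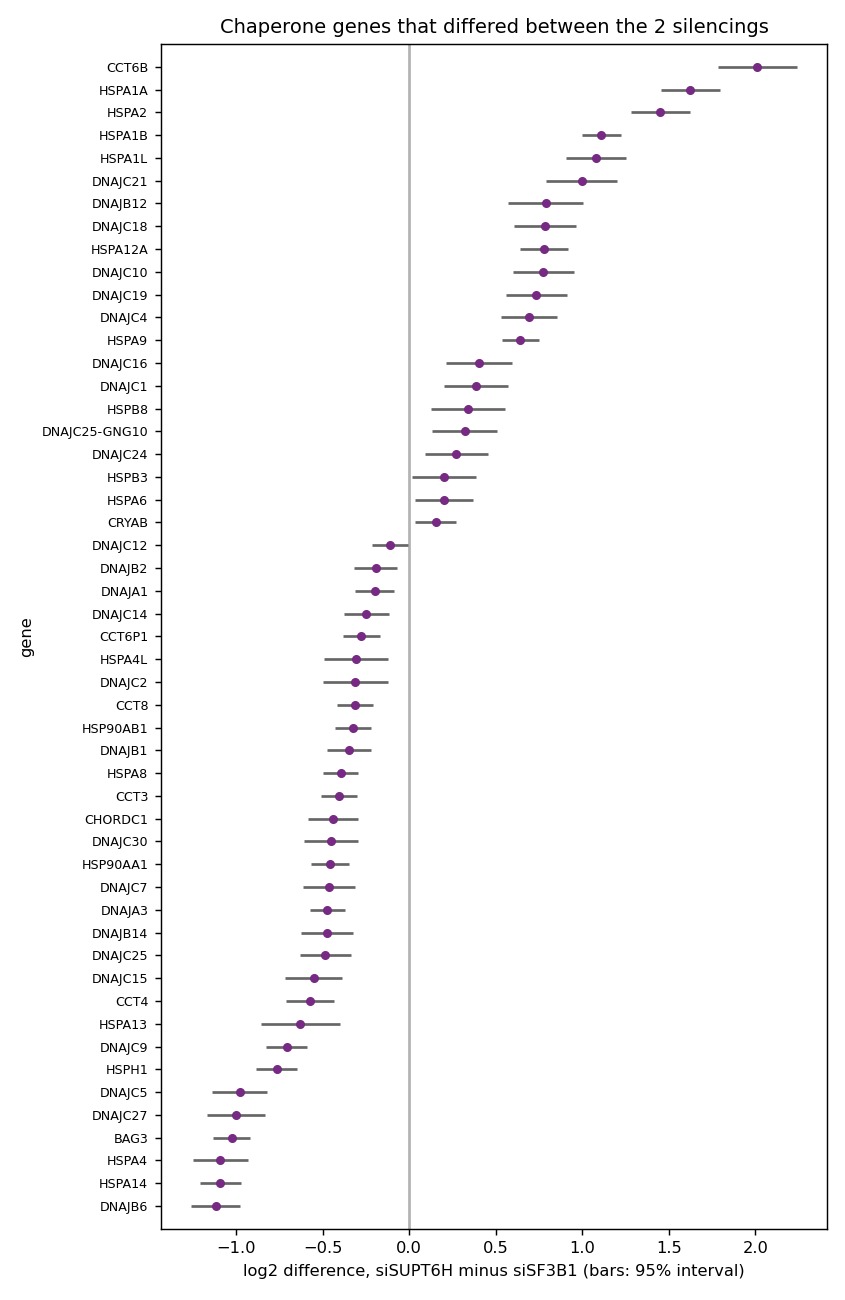
Log2 difference, siSUPT6H minus siSF3B1 (x axis), with its 95% interval for the 51 chaperone genes (rows) that were called. CCT6B, HSPA1A, HSPA2 and HSPA1B stand at the upper end, and DNAJB6, HSPA14, HSPA4 and BAG3 at the lower end. Each gene is shown by 1 probe, and the other probes of DNAJB6 and HSPA4 were called the opposite way.

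Between siNeg set 1 and Untreated cells 8 members differed. In siNeg set 1, 7 members were called lower and 1 higher, where 4.76% and 2.67% of all genes were. HSPA1A read 7.38, 7.31 and 7.20 in siNeg set 1 and 7.50, 8.29 and 7.88 in Untreated cells, a change of -0.59 (SE 0.15, adjusted p = 0.00743). All siNeg arrays were below all Untreated arrays, but the call was lost without replicate 2 (-0.40, adjusted p = 0.318) or replicate 3 (-0.55, adjusted p = 0.0820). HSPA1B read 8.24, 8.15 and 8.44 in siNeg set 1 and 8.71, 8.88 and 8.86 in Untreated cells, a change of -0.54 (SE 0.10, adjusted p = 0.000128). CRYAB read 8.89, 8.80 and 8.84 in siNeg set 1 and 9.45, 9.40 and 9.29 in Untreated cells, a change of -0.54 (SE 0.10, adjusted p = 0.000336). These arrays did not overlap either. DNAJC10 (-0.49), HSPA8 (-0.46), HSP90AA1 (-0.41) and HSPH1 (-0.40) were also lower and HSP90AB1 (0.34) higher, while the other kept probes of DNAJC10 (0.16), HSPA8 (-0.28) and HSP90AA1 (-0.29 and -0.14) were not called. With 3 arrays a group these counts were unsteady, at 3 members without replicate 2 and 5 without replicate 1.

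Between siNeg set 2 and siNeg set 1, 19 members were called higher and 16 lower (24.1% and 12.3% of all genes). TCP1, a TRiC/CCT subunit, read 8.24, 7.71 and 7.99 in set 2 and 10.59, 10.56 and 10.23 in set 1, a difference of -2.48 (SE 0.12, adjusted p = 3.20e-23), but its 2 other probes gave -1.31 and 0.22. HSPA4 read 5.52, 5.71 and 5.78 in set 2 and 7.56, 7.67 and 7.62 in set 1, a difference of -1.95 (SE 0.14, adjusted p = 4.78e-17), while its other probe gave 0.23. HSPA1A read 5.78, 5.51 and 5.36 in set 2 and 7.38, 7.31 and 7.20 in set 1, a difference of -1.75 (SE 0.15, adjusted p = 4.08e-14), and HSPA1B differed by 0.43 in the other direction. The sets did not overlap for any of these 4 genes, and the siHNRNPH1 arrays stood near set 2 in TCP1, HSPA4 and HSPA1A, with levels of 7.86 to 8.30 in TCP1. The split of all calls depended on scaling: 66.1% of calls were higher in set 2 as analysed, 1.58% when the arrays of each set were normalized apart, and 0.624% in the authors' values. The median over all genes was 0.13, -0.28 and -0.19 in these settings. The rise of TCP1 with siSF3B1 (0.22, SE 0.10, adjusted p = 0.0475) was not called without replicate 2 (0.26, adjusted p = 0.0563) or replicate 3 (0.08, adjusted p = 0.582). These values hold for 1 probe. The 3 kept probes of TCP1 ran from 0.14 to 1.21 with siSF3B1 and from 0.18 to 0.51 with siSUPT6H.

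Partner genes outside the chaperone families were read from lists chosen with earlier results known, and their counts stand against the shares of all genes given above (25.7% higher and 21.8% lower with siSUPT6H, 26.2% and 35.7% with siSF3B1, 21.6% and 23.5% with siHNRNPH1). Of 11 tested HSP90 co-chaperones 5 were higher and 1 lower with siSUPT6H, 5 and 1 with siSF3B1, and 1 and 2 with siHNRNPH1. SUGT1 (1.08) and FKBP4 (0.75) rose most with siSF3B1, while the ubiquitin ligase STUB1 fell there (-0.76) and rose with siSUPT6H (0.46). Of 6 HSP70 co-chaperones only ST13, which passes clients to HSP90, was called higher with each target (0.78 with siSUPT6H, 0.48 with siSF3B1 and 1.16 with siHNRNPH1), and only BAG5 lower with each (-0.32, -0.73 and -0.33). Prefoldin and CCT helpers, which feed actin and tubulin to TRiC, had 5 of 8 higher and 0 lower with siSF3B1, led by PFDN4 (0.95) and PDCL3 (0.87), against 4 and 1 with siSUPT6H and 1 and 1 with siHNRNPH1. Among 9 other heat shock factor genes and targets 5 were higher and 2 lower with siSUPT6H, 3 and 2 with siSF3B1, and 5 and 2 with siHNRNPH1. DEDD2 rose with each target (0.94, 1.37 and 0.61), and TRAP1, the mitochondrial HSP90, fell with each (-0.37, -0.60 and -0.55). ZFAND2A, an arsenite- and heat-inducible gene, rose with siSF3B1 (0.84) and fell with siSUPT6H (-0.23) and siHNRNPH1 (-0.43). Of the 5 chaperones of the endoplasmic reticulum 3 were higher and 0 lower with siSUPT6H, 4 and 1 with siSF3B1, and 2 and 1 with siHNRNPH1. HSP90B1 (0.61 with siSUPT6H, 0.83 with siSF3B1) and DNAJB11 (0.71 and 0.50) were among those that rose. HSPA5 was the only one lower with siSF3B1 (-0.55) and rose with siHNRNPH1 (0.44).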

How the data were processed

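The authors deposited bead-array intensity values and detection p-values for 36 arrays (Illumina HT-12 format), not yet normalized, and a table of their own normalized log2 values; the submitters' processing notes name GenomeStudio, lumi and R 3.0.2. The deposited intensity values of 47323 probes were background-corrected from the deposited detection p-values and quantile-normalized (limma 3.58.1 neqc, offset 16, R 4.3.3), giving log2 values; the authors' log2 values served as an alternative. Probes with a detection p below 0.01 on at least 3 arrays were kept (19738). Of all probes 30113 had 1 gene symbol, 8 had several and 17202 none. Among the kept probes with 1 symbol, the probe with the highest mean stood for each of 11437 genes. A linear model with 12 groups and 24 residual degrees of freedom was fitted to all arrays (eBayes with intensity trend). Each target is the mean of its 3 siRNA groups minus its own siNeg set; standard errors do not include the spread among siRNAs, for which a random block (statmod 1.5.0) was an alternative. P-values are two-sided and Benjamini-Hochberg adjusted over all genes. The number of arrays limits the precision. The script was tested on simulated data.

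The members and gene lists were chosen with earlier results of these data known. Values by array are given for HSPA1A, HSPA1B and HSF1, for the 4 largest rises and 4 largest falls per target among genes called with each siRNA, for the 2 smallest F-test p-values per target, and for the 3 largest differences each way between groups; other members are examples of their role. Replicate numbers were not used to pair arrays. Deviations from the group means were correlated over 9 pairs per target of siRNA and siNeg arrays with like numbers. The correlation ran from -0.134 to 0.136 for siSUPT6H (3 pairs above 0.1), -0.121 to 0.038 for siSF3B1 and -0.082 to 0.026 for siHNRNPH1. Arrays with unlike numbers were not compared, so pairing by number is not excluded. Promoters were searched with pandas 2.3.3 and aligned with Biopython 1.88.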

Additional observations from a re-analysis of the deposited data

Results flagged for a closer look

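HSPH1 differed among the siRNAs against SUPT6H (F test of limma, adjusted p = 1.18e-23). Its change against siNeg set 1 was 0.82 with A1, -0.75 with A3 and 1.52 with Q3, each called, with 3 of 3 arrays in that direction for each siRNA. The 1.98% of all genes that were called in both directions among the siSUPT6H siRNAs included 1 of the 70 chaperone genes, HSPH1.

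DNAJC4, a class C J-domain gene, differed among the siRNAs against HNRNPH1 (F test of limma, adjusted p = 4.34e-10). It read 7.24, 7.59 and 7.64 with A3, 6.19, 6.06 and 6.30 with Q3 and 6.94, 6.99 and 6.67 with A2, against 7.18, 6.96 and 6.87 in siNeg set 2. A3 was above and Q3 below the siNeg arrays, with changes of 0.49 and -0.82, while the change with A2 was -0.14 and not called. Of all genes 2.21% were called in both directions among the siHNRNPH1 siRNAs, and DNAJC4 was the 1 chaperone gene among them.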

How the results depend on the processing

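For 22 members 70 called values were recomputed under the alternatives, giving 1080 values, of which 1019 kept direction and call, 58 kept the direction and lost the call, and 3 changed sign. The sign changes were HSPA1A with siHNRNPH1 (-0.16) and CCT6P1 with siSUPT6H (0.49) against all 6 siNeg arrays, and DNAJB6 between siSUPT6H and siSF3B1 with the mean of its probes (0.00038). Against all 6 siNeg arrays the median change was 0.299 with siSF3B1 and -0.0812 with siHNRNPH1, where 22 members were lower. The median with siSUPT6H was 0.0933 without background correction, 0.0981 in the authors' values and 0.0929 without the detection filter, and with siSF3B1 0.121, 0.131 and 0.111. The mean of kept probes gave 18 lower members with siSUPT6H. The siRNA or control group as random block (correlation 0.451) left 2054, 4063 and 1622 of all genes called with siSUPT6H, siSF3B1 and siHNRNPH1, with 14 members higher and 3 lower, 7 lower, and 6 higher and 5 lower. With siRNA means as replicates 5 members were lower with siSUPT6H and 3251 genes were called with siHNRNPH1. Leaving out 1 replicate gave 7 to 8 members lower with siSUPT6H, 1 to 9 differing among siSF3B1 siRNAs (16 without a siNeg array), 13 to 15 called with all siHNRNPH1 siRNAs, 3 to 6 called between siNeg set 1 and Untreated, and 18 to 20 between siSUPT6H and siHNRNPH1. Leaving out single siNeg arrays, chosen after seeing the data, ended calls only for DNAJC18 and DNAJC19 (siSUPT6H), TCP1 (siSF3B1) and DNAJB6 (siHNRNPH1). A replicate block, although pairing by number was not established, gave 5494, 7128 and 5219 genes called, with 29, 34 and 18 members higher and 10, 17 and 14 lower. Of the 70 called values this block ended only that of DNAJC18 with siSUPT6H (adjusted p = 0.0506). The cause of these shifts was not tested. Members detected on few arrays (such as HSPA1L and HSPA6) are limited by signal over background, and so is DNAJC21 on the siSF3B1 arrays, where it was not detected.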
